A study of Homo sapiens with 6 samples.

Results

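Laminin and nidogen transcripts were measured by RNA-seq in H2087-LCC cells, a dormant metastatic derivative of the human lung adenocarcinoma (LUAD) line H2087. The genes described are LAMA1, LAMA3, LAMA4 and LAMA5, which encode laminin α chains, LAMB1, LAMB2 and LAMB3, which encode β chains, LAMC1, which encodes a γ chain, and NID1, which encodes nidogen-1. They were chosen by symbol, and all 9 were among the 21293 genes of the table. LAMA2 and NID2, which encode a further α chain and nidogen-2, are given beside them.

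A laminin is a trimer of 1 α, 1 β and 1 γ chain that is assembled inside the cell and secreted, and laminins polymerize on the cell surface into the first sheet of a basement membrane. Nidogen-1 binds the γ1 chain and joins the laminin sheet to the type IV collagen network. The α3 and β3 chains are parts of the laminin that anchors epithelial cells, which hold it through the integrins α6β4 and α3β1. Laminins with the α5 chain are found in the basement membranes of most adult epithelia, including that of the lung, α4 in vessels and mesenchymal tissue, and α1 mainly in the embryo.

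The cells, 1 line in all libraries, were treated with SB505124 (SB), which blocks the kinase of the TGFβ receptor, for 3 days, with TGFβ for 3 days, or with TGFβ for 7 days, and each group had 2 libraries. In the study the libraries of a group are described as technical replicates, so the p-values may cover the spread of library preparation and not that between cultures. SB was sampled at 3 days alone, so the effect of TGFβ and that of a longer time in culture cannot be told apart in the comparison of 7 days with SB. In the comparison of 7 with 3 days of TGFβ, longer exposure to TGFβ and longer time in culture cannot be told apart either. No untreated library was included, and in the study SB gave the baseline by blocking the TGFβ signalling of the cells themselves. An effect of added TGFβ and one of that block cannot be told apart in the comparisons with SB. All 3 comparisons share libraries with each other. The labelled cell type was checked against markers. The keratins KRT8 and KRT18 were at 31757 to 50793 normalized counts in the 6 libraries, and NKX2-1, which marks LUAD, was at 2784 and 2908 in SB and 712 to 857 with TGFβ. All 3 LUAD markers (NKX2-1, NAPSA and SFTPB) were lower at both times. Of 5 epithelial markers, 1 was higher and 2 were lower at 3 days and again at 7 days. EPCAM was at 10180 and 9106 in SB, 6610 and 5994 at 3 days and 2988 and 3277 at 7 days, and the mesenchymal markers VIM and FN1 were both higher at both times. The fibroblast markers DCN and LUM stood at 0 to 1 and PDGFRA at 8 to 16, the endothelial markers CDH5 and VWF at 0 to 20 and PECAM1 at 36 to 67, and the blood markers PTPRC, CD3E and CD14 at 0 to 8. Normalized counts summed to between 34306283 and 36340734 per library, and 1 read was worth 0.896 to 1.10 normalized counts, so that a value under about 10 rests on a few reads.

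The comparisons asked which chains were expressed, which differed with TGFβ at 3 and at 7 days, and whether the mix of chains shifted. Differences are given on the log2(normalized count + 1) scale from limma, with p-values adjusted by the Benjamini-Hochberg method over the 14395 genes tested and a threshold of 0.05. Of the 9 genes, 8 were tested. LAMA1 had a mean under 10 and was not.

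At 3 days of TGFβ, 4 of the 8 tested genes were higher than in SB (LAMA3, LAMB1, LAMB3 and NID1), where 14.9% of all genes tested were higher, and 1 was lower (LAMA5), where 14.0% of all genes were lower. LAMA4, LAMB2 and LAMC1 did not pass the test. The median log2 difference was 0.38 over the 8 genes and -0.02 over all genes tested. At 7 days, 6 of the 8 were higher than in SB (LAMA3, LAMA4, LAMB1, LAMB2, LAMB3 and NID1), against 27.7% of all genes, and none was lower by limma, against 26.9% of all genes. LAMA5 and LAMC1 did not pass, and neither had an unadjusted p under 0.05. The median was 0.64 over the 8 genes. Between 3 and 7 days of TGFβ, LAMA5, LAMB2 and NID1 rose, where 17.0% of all genes tested were higher, and LAMB3 fell, where 16.2% were lower. In bulk RNA, a change in the number of cells that express a gene and a change in RNA per cell cannot be told apart.

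**Figure D1:**
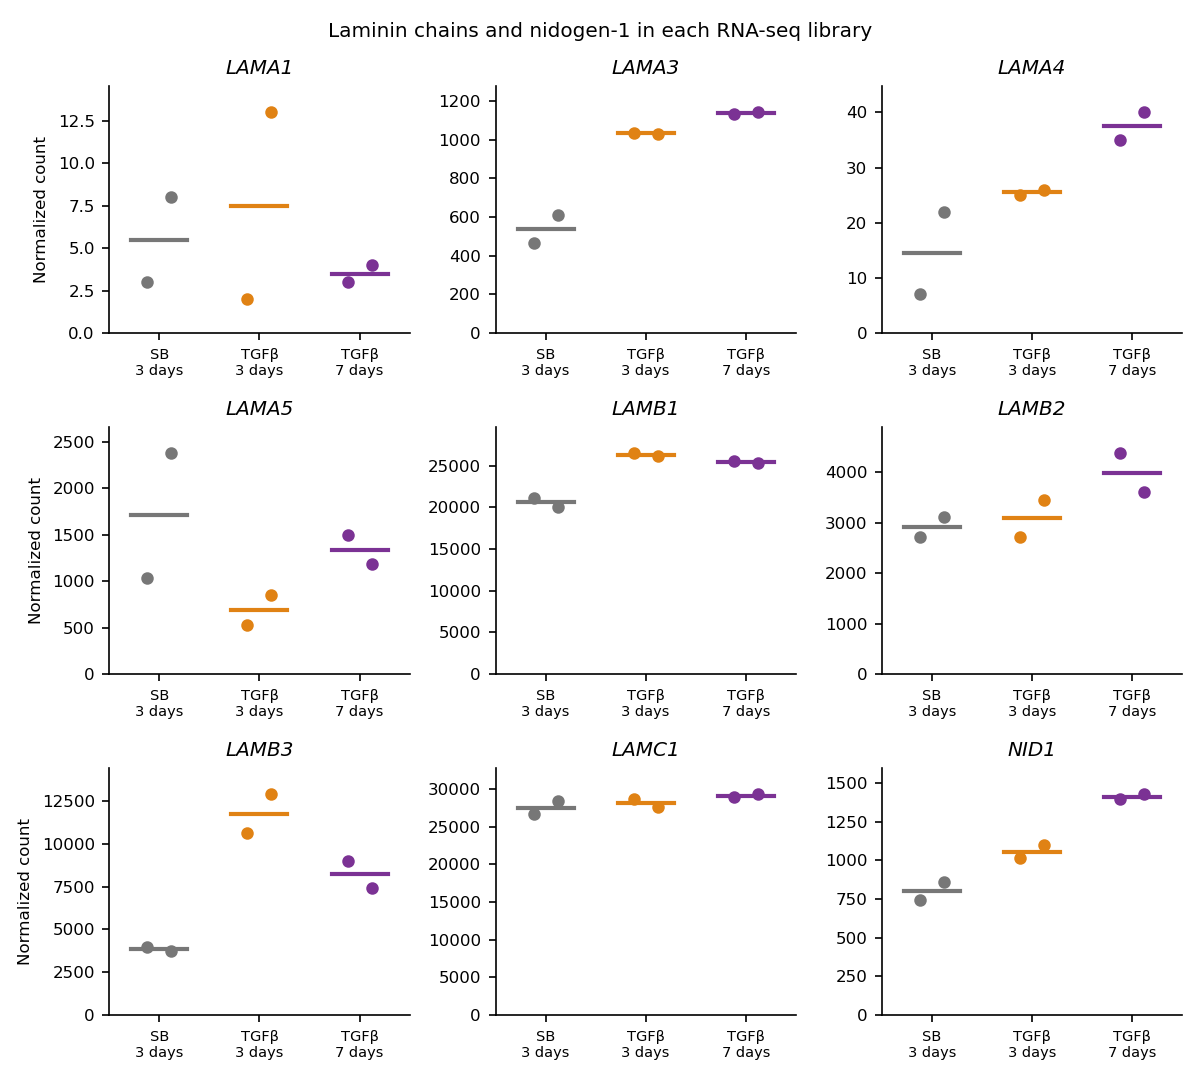
Normalized counts (vertical axis, linear from 0, with its own range in each panel) of the 9 genes in SB at 3 days, TGFβ at 3 days and TGFβ at 7 days. Each point is 1 library and the bar is the mean of 2. All 4 TGFβ libraries lie above both SB libraries for LAMA3, LAMA4, LAMB1, LAMB3 and NID1. Of all genes tested, 30.3% at 3 days and 38.9% at 7 days lie above SB without overlap (63.2% and 77.5% in either direction). These shares are for each time alone, and the share above SB at both times was not computed. Between 7 and 3 days of TGFβ, 69.1% do not overlap in either direction. LAMB3 is highest at 3 days, LAMC1 lies between 26711 and 29287, and the SB libraries of LAMA5 lie at 1038 and 2372.

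Transcripts of the α3 and β3 chains of the epithelial anchor laminin were higher than in SB at 3 days. LAMB3, the β3 chain (chromosome 1, 209788215 to 209825770, minus strand, GRCh37), was at 3972 and 3728 normalized counts in SB, 10631 and 12887 at 3 days and 8990 and 7446 at 7 days. The groups did not overlap, and the 3-day libraries were the highest. LAMB3 was 3.04-fold higher at 3 days (log2 difference 1.60, SE 0.11, 95% interval 1.36 to 1.85, adjusted p = 8.14e-07). The 7-day value was 2.13-fold that of SB (1.09, interval 0.84 to 1.33, adjusted p = 8.98e-06). From 3 to 7 days it fell by 0.52 on the log2 scale (interval -0.76 to -0.27, adjusted p = 0.00505). That fall no longer passed without the second 7-day library (-0.38, adjusted p = 0.0753, with a range over all libraries left out in turn of 0.00315 to 0.0753), nor without a filter on low values (adjusted p = 0.0578) or without the trend in limma (adjusted p = 0.0581), whereas both differences from SB passed in each of the 17 alternatives.

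LAMA3, the α3 chain (chromosome 18, 21269417 to 21536186, plus strand), was at 464 and 609 normalized counts in SB, 1036 and 1032 at 3 days and 1132 and 1141 at 7 days. Both times of TGFβ lay above SB with no overlap, and the 7-day libraries lay just above the 3-day libraries. The gene was 1.94-fold higher at 3 days (log2 difference 0.96, SE 0.13, interval 0.67 to 1.24, adjusted p = 0.000178) and 2.14-fold higher at 7 days (1.09, interval 0.81 to 1.38, adjusted p = 2.79e-05), and both passed in each of the 17 alternatives. The step from 3 to 7 days was 0.14 (interval -0.15 to 0.42, adjusted p = 0.452). At 7 days the α3 chain was still at its highest values, while β3 was below its 3-day values.

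Promoter sequences are shown for LAMA3 and LAMB3, which were both higher than SB at 3 and 7 days. LAMB1 and NID1 were higher at both times too. Their windows, which hold no match to the site marked below, are not shown. That of LAMC1, which did not pass in any comparison, is shown beside them. Each window (RefSeq, GRCh38.p14) runs from 250 bases before to 50 bases after an annotated start, 5′ to 3′ on the strand of the gene. The capitals mark matches to TGANTCA, the site of AP-1, a factor made of JUN and FOS proteins. LAMA3 is chr18:23872770-23873069 (plus strand), LAMB3 start A is chr1:209651325-209651624 and start B chr1:209652376-209652675 (minus strand), and LAMC1 is chr1:183023170-183023469 (plus strand).
LAMA3: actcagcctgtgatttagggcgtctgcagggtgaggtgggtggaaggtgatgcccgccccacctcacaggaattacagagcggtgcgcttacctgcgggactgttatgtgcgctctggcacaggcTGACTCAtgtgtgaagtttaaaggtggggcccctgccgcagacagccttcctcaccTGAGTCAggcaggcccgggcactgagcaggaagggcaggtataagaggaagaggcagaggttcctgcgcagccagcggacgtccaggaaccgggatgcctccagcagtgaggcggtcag
LAMB3 start A: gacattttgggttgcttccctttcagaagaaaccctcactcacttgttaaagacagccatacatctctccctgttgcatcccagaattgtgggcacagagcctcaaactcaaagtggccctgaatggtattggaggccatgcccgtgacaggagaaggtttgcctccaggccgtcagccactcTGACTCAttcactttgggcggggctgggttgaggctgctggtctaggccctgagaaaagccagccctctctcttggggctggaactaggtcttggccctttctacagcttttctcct
LAMB3 start B: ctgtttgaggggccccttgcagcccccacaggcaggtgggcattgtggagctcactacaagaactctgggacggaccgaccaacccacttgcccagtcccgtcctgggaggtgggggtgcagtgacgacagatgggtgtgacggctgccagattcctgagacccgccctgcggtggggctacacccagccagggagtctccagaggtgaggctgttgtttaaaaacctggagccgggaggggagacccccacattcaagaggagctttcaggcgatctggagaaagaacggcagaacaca
LAMC1: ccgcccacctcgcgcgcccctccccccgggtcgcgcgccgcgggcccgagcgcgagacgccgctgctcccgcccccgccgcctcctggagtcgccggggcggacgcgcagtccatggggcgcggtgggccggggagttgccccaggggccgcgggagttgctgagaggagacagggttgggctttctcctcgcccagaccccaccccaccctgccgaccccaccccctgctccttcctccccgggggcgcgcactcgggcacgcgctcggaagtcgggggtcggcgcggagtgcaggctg

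LAMA3 holds 2 matches, TGACTCA at base -125 and TGAGTCA at base -69 from the start, and LAMB3 start A holds 1, TGACTCA at base -67. LAMB3 start B, a further LAMB3 window that overlaps it and LAMC1 hold none. Of all 35116 promoter windows of the same length in the table, 7.71% hold TGANTCA. Promoters were found for 8 of the 9 genes (10 windows), and LAMA3 and LAMB3 were the 2 genes of these 8 with a match. LAMB1 and NID1, which were higher than SB at both times, and LAMA4 and LAMB2, higher at 7 days, held no match. CAGAC, a short SMAD site searched on both strands, was in 45.3% of all windows and in those of LAMA3, LAMA4, LAMA5, LAMB2 and LAMC1. The longer SMAD site GTCTAGAC (0.202% of all windows) and the TEAD site GGAATG (14.0%) matched in none of the 10. The E-box CAGGTG, a site of ZEB and SNAI factors, was in 20.6% of all windows, and in those of LAMA3 and LAMA5 and in LAMB3 start B. These matches describe the letters in the windows, and the counts do not show which start was used. LAMA3, which has a long and a short coding form, had 1 window, and which form starts there was not examined. LAMA1 had no entry.

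LAMA5, the α5 chain (chromosome 20, 60883011 to 60942368, minus strand), went the other way at 3 days. It was at 1038 and 2372 normalized counts in SB, 523 and 852 at 3 days and 1491 and 1182 at 7 days. The 3-day libraries were the lowest, and the 7-day libraries lay between those of SB. LAMA5 was 2.35-fold lower than SB at 3 days (log2 difference -1.23, SE 0.31, interval -1.91 to -0.55, adjusted p = 0.0112) and rose 1.99-fold from 3 to 7 days (0.99, interval 0.31 to 1.67, adjusted p = 0.0295). At 7 days it differed from SB by -0.24 (interval -0.92 to 0.44, adjusted p = 0.534).

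The 2 SB libraries of LAMA5 differed by 1.19 on the log2 scale, where the median absolute difference between SB libraries was 0.138 over 11389 genes. SFTPB, a surfactant protein, differed between them the same way, at 1104 and 8273, as did NAPSA, a protease of surfactant processing, at 99 and 234. NKX2-1, the other LUAD marker, differed little, at 2784 and 2908. All TGFβ libraries were at 24 or below for SFTPB and at 9 or below for NAPSA. The part of the difference between the SB libraries in the results for LAMA5 was not tested. Without the second SB library the 3-day difference was -0.64 and did not pass (adjusted p = 0.0981), and without the first 3-day library it was -0.88 (adjusted p = 0.0653), in a range of adjusted p of 0.000738 to 0.0981 over the libraries left out. It was also lost without a filter on low values (adjusted p = 0.130) and without the trend (0.107). Without the first SB library the 7-day difference was -0.84 and passed (adjusted p = 0.0222), and it passed with a correction for GC content and length (-0.88, adjusted p = 0.00346), while without the second SB library it was 0.35. The rise from 3 to 7 days was lost in 3 of 11 alternatives with all libraries (highest adjusted p 0.190). It was also lost without the first 3-day library (0.64, adjusted p = 0.163), the first 7-day library (0.82, 0.143) or the second 7-day library (1.16, 0.0551). LAMA5 also shares 244 bases (1.7% of its exons) with ADRM1 on the opposite strand, and the library kit does not mark strand. How reads in these bases were counted is not known.

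Base composition moved with the replicates. LAMA5 is 66.4% GC in its exons, LAMB2 60.3% and LAMB3 58.9%, and the other tested genes of the set lie between 45.1% and 51.8%. Among 1321 genes over 60% GC, the second library exceeded the first by a median log2 of 0.344 at 3 days and 0.084 in SB, and at 7 days that median was -0.266. LAMA5 (0.703 and -0.335), LAMB2 (0.347 and -0.277) and LAMB3 (0.278 and -0.272) had the same signs at 3 and 7 days. LAMB1 (-0.015 and -0.008), LAMC1 (-0.055 and 0.019) and LAMA3 (-0.006 and 0.011), which are nearer to even base composition, differed little. NID1, also nearer to it, differed by 0.113 and 0.028. In SB the differences did not follow base composition as closely. They were 1.192 for LAMA5, 0.199 for LAMB2 and -0.091 for LAMB3. For LAMA3 they were 0.392, for NID1 0.207, for LAMB1 -0.081 and for LAMC1 0.087. The part of base composition in the results for LAMA5, LAMB2 and LAMB3 was not tested beyond the correction for GC content and length, under which LAMB3 still passed in all 3 comparisons, LAMB2 lost its call between 7 and 3 days and LAMA5 was called lower at 7 days as well as at 3 days.

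LAMA4, the α4 chain (chromosome 6, 112429134 to 112576141, minus strand), was expressed at a low level. It was at 7 and 22 normalized counts in SB, 25 and 26 at 3 days and 35 and 40 at 7 days. The groups did not overlap and were in the order SB, 3 days, 7 days. LAMA4 was 2.83-fold higher than SB at 7 days (log2 difference 1.50, SE 0.44, interval 0.54 to 2.46, adjusted p = 0.0124), and the differences of 3 days from SB (0.97, adjusted p = 0.122) and of 7 from 3 days (0.54, adjusted p = 0.375) did not pass. The 7-day call was lost in 1 of 10 alternatives with all libraries (highest adjusted p 0.0746) and without the first SB library (0.74, adjusted p = 0.0750) or the second 7-day library (1.41, adjusted p = 0.0665). At 3 days the difference passed once the second SB library was left out (1.73, adjusted p = 0.00498). LAMA1, the α1 chain (chromosome 18, 6941741 to 7117796, minus strand), stood at 3 and 8 in SB, 2 and 13 at 3 days and 3 and 4 at 7 days, which overlap and are a few reads each. LAMA2, the α2 chain of muscle, was at 68 to 103 in the 6 libraries, with log2 differences from SB of 0.27 and 0.23 (adjusted p = 0.415 at 3 days and 0.412 at 7 days).

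LAMB1, the β1 chain (chromosome 7, 107564244 to 107643658, minus strand), is the most highly counted β chain. It was at 21169 and 20017 normalized counts in SB, 26476 and 26194 at 3 days and 25514 and 25370 at 7 days. Both TGFβ groups were above SB without overlap, and their own libraries lay close together. LAMB1 was 1.28-fold higher at 3 days (log2 difference 0.36, SE 0.08, interval 0.19 to 0.52, adjusted p = 0.00401) and 1.24-fold higher at 7 days (0.31, interval 0.14 to 0.47, adjusted p = 0.00466). From 3 to 7 days the difference was -0.05 (interval -0.21 to 0.11, adjusted p = 0.646), and with the correction for GC content and length it was -0.22 and passed (adjusted p = 0.0486). The 3-day call held in all 17 alternatives. The 7-day call was lost with the correction for GC content and length (0.08, adjusted p = 0.386) and without the first 7-day library (adjusted p = 0.0509), in a range of adjusted p of 0.00322 to 0.386. LAMB1 shares 300 bases of exon (1.6%) with DLD on the opposite strand.

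LAMB2, the β2 chain, which is known from the kidney glomerulus and the synapse (chromosome 3, 49158547 to 49170551, minus strand), was at 2709 and 3109 normalized counts in SB, 2718 and 3458 at 3 days and 4374 and 3610 at 7 days. SB and 3 days overlapped, and both 7-day libraries were above the other 4. At 3 days the log2 difference was 0.08 (interval -0.20 to 0.36, adjusted p = 0.689). LAMB2 was 1.37-fold higher than SB at 7 days (0.45, interval 0.17 to 0.74, adjusted p = 0.0110) and 1.30-fold higher than at 3 days (0.37, interval 0.09 to 0.66, adjusted p = 0.0446). The first call was lost without the first SB library (0.35, adjusted p = 0.0912) or the first 7-day library (0.31, adjusted p = 0.123). The second was lost without the first 3-day library (0.20, adjusted p = 0.340) or the first 7-day library (0.24, adjusted p = 0.319). Other settings with all libraries ended them in 2 and 4 of 11 cases. With the correction for GC content and length, the difference from SB at 7 days was 0.18 (adjusted p = 0.0211) and that between 7 and 3 days was 0.13 and did not pass (adjusted p = 0.0888).

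LAMC1, the γ1 chain that most laminins outside the epithelial anchor share (chromosome 1, 182992555 to 183114727, plus strand), was at 26711 and 28376 normalized counts in SB, 28637 and 27559 at 3 days and 28898 and 29287 at 7 days. SB and 3 days overlapped, and the 7-day libraries were higher than the other 4 by a small margin. The log2 difference from SB was 0.03 at 3 days (interval -0.14 to 0.20, adjusted p = 0.812) and 0.08 at 7 days (interval -0.09 to 0.25, adjusted p = 0.400). From 3 to 7 days it was 0.05 (interval -0.12 to 0.22, adjusted p = 0.647). At 7 days the sign turned and the test passed with the correction for GC content and length (-0.17, adjusted p = 0.0339). The interval at 3 days does not reach the difference of LAMB3.

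NID1, nidogen-1 (chromosome 1, 236139130 to 236228409, minus strand), was at 743 and 858 normalized counts in SB, 1014 and 1097 at 3 days and 1398 and 1425 at 7 days. Its 3 groups did not overlap and stood in the order of SB, 3 days and 7 days. NID1 was 1.32-fold higher than SB at 3 days (log2 difference 0.40, SE 0.11, interval 0.16 to 0.64, adjusted p = 0.0170), 1.77-fold higher at 7 days (0.82, interval 0.58 to 1.06, adjusted p = 6.56e-05) and 1.34-fold higher at 7 than at 3 days (0.42, interval 0.18 to 0.66, adjusted p = 0.0128). The 7-day difference from SB passed in all 17 alternatives. The 3-day difference was lost without the first SB library (0.30, adjusted p = 0.0796), the second 3-day library (0.34, adjusted p = 0.111) or the trend (adjusted p = 0.0567). The step from 3 to 7 days was lost without the first 3-day library (0.36, adjusted p = 0.0958) or either 7-day library (adjusted p = 0.0710 and 0.0931). NID2, the second nidogen, was at 30 and 31 in SB, 49 and 48 at 3 days and 47 and 39 at 7 days, with log2 differences from SB of 0.65 and 0.48 (adjusted p = 0.0785 and 0.137).

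**Figure D2:**
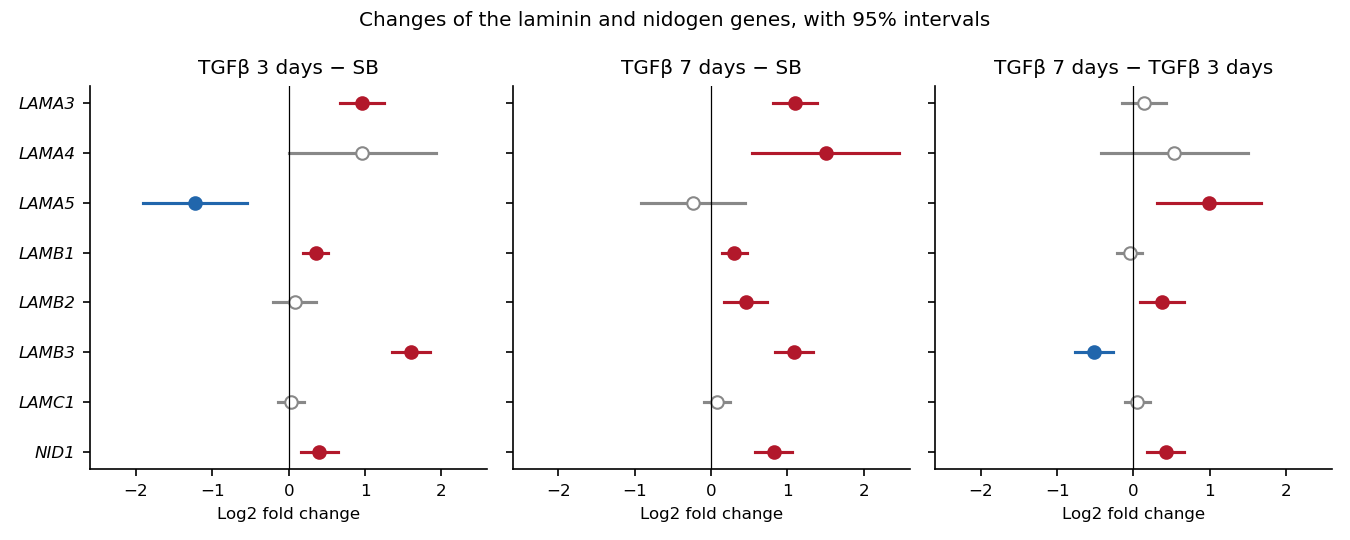
Log2 differences (horizontal axis) of the 8 tested genes in the 3 comparisons, with 95% intervals from limma. Red is higher and blue is lower at an adjusted p under 0.05, and open grey is not called. LAMB3 has the largest difference at 3 days (1.60), LAMC1 stays within 0.1 of 0 in each panel, and the widest intervals are those of LAMA4 and LAMA5.

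Levels were compared between genes per kb of merged exons (GENCODE gene models on GRCh37). In SB the order of the 9 genes was LAMC1 (3261 normalized counts per kb), LAMB1 (1108), LAMB3 (828.5), LAMB2 (423.7), NID1 (137.8), LAMA5 (119.3) and LAMA3 (37.03). The ranges of NID1 and LAMA5 overlapped, and those of the other neighbours did not. LAMA4 (1.21) and LAMA1 (0.347) were at the bottom. At 3 days LAMB3 (2530) stood above LAMB1 (1416), and LAMA3 (71.37) above LAMA5 (48.11), with no overlap in either pair. At 7 days LAMB3 (1768) was still above LAMB1 (1368), while LAMA5 (93.52) was again above LAMA3 (78.44). Both orders at 7 days depend on the length used, as does that of LAMB3 and LAMB1 at 3 days. Per kb of the longest coding sequence, LAMB1 was above LAMB3 at 3 days (4915 and 3344) and at 7 days (4748 and 2337). In every group each α chain was below LAMB2, the lowest of the 3 β chains of the set, on this scale.

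Within the α chains, LAMA3 took 29.7% and 19.7% of the level per kb in the SB libraries, 62.9% and 51.9% at 3 days and 41.5% and 46.6% at 7 days (24.7% ± 7.0, 57.4% ± 7.8 and 44.0% ± 3.6, mean ± SD, n = 2). LAMA5 took 72.5% ± 7.5, 37.8% ± 7.9 and 52.2% ± 4.6. Within the β chains, LAMB3 took 35.8% and 34.4% in SB, 55.7% and 59.2% at 3 days and 49.1% and 45.9% at 7 days, and LAMB1 46.9% ± 1.1, 32.4% ± 3.3 and 36.9% ± 3.0. The libraries of SB and of 3 days did not overlap in the shares of LAMA3, LAMA5, LAMB1 and LAMB3. These shares are descriptions with no test.

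The size of the shares depends on the length that is used. Per kb of the longest coding sequence, LAMB3 took 20.0%, 37.8% and 29.8% of the β chains in SB, at 3 days and at 7 days and LAMB1 70.1%, 55.8% and 60.8%, so that LAMB1 was above LAMB3 in every group. On that scale LAMA5 (120.6 normalized counts per kb) and LAMA3 (113.7) overlapped at 7 days, and with the short LAMA3 form LAMA3 (227.1) was above LAMA5. LAMA3 has a long and a short coding form (9999 and 5004 bases), and with the short form its share of the α chains was 41.2%, 73.1% and 62.4%. The rise of the LAMA3 and LAMB3 shares from SB to 3 days and the lower value at 7 days were present with each length.

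**Figure D3:**
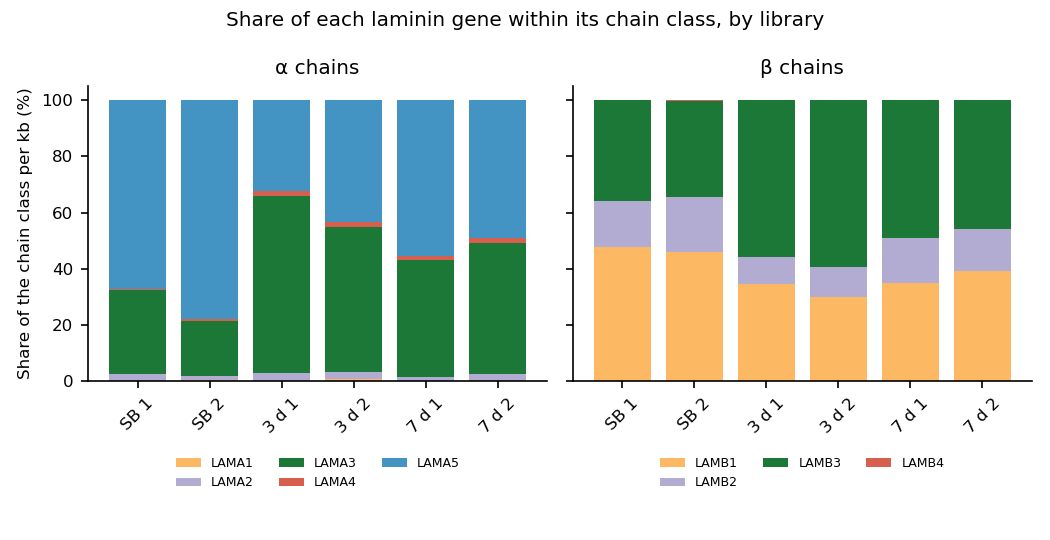
Share (vertical axis, %) of each gene in the level per kb of merged exons of its chain class, one stacked bar per library, for the α and the β chains. The share of LAMA3 is 19.7% to 29.7% in SB and 51.9% to 62.9% at 3 days and that of LAMB3 34.4% to 35.8% and 55.7% to 59.2%.

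The genes around laminin were read from lists of basement membrane parts, receptors, enzymes and proteases. Of 22 laminin receptors and their partners, 18 were tested, with 8 higher and 3 lower at 3 days and 9 higher and 1 lower at 7 days (medians 0.05 and 0.30). These are 44.4% and 16.7% of the 18 at 3 days and 50% and 5.56% at 7 days, beside 14.9% and 14.0% of all genes tested at 3 days and 27.7% and 26.9% at 7 days, so the share that was lower at 3 days is near that of all genes. ITGB1, the β subunit of most laminin integrins, was at 21386 and 18868 normalized counts in SB, 51900 and 47743 at 3 days and 51760 and 54880 at 7 days, a log2 difference of 1.31 at 3 days (adjusted p = 5.88e-07). ITGA6, whose α6 subunit pairs with β1 or β4, was at 2943 and 2545, then 6760 and 6603, then 4727 and 4847, with 1.29 at 3 days (adjusted p = 8.39e-07) and a fall of 0.48 (-0.48, adjusted p = 0.00235) from 3 to 7 days. ITGB4, the β4 subunit of the hemidesmosome, was lower at 3 days (-0.64, adjusted p = 0.0100), with 1351 and 1506 in SB, 756 and 1107 at 3 days and 1884 and 1610 at 7 days. BCAM, a receptor for the α5 chain, was lower at 3 days too (157 and 391, then 68 and 81, then 215 and 188, log2 difference -1.73, adjusted p = 0.00180). At 7 days the largest rises in this list were SDC2 (1.59), ITGB1 (1.41) and ITGA3 (1.37), and RPSA, which has many near-identical copies in the genome and is uncertain for that, was lower (-0.74). The plectin gene PLEC was higher (0.90, adjusted p = 0.00266) and the sarcoglycan SGCE lower (-0.32, adjusted p = 0.0267) at 3 days.

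Of the 32 other basement membrane genes, 17 were tested, with 6 higher and 1 lower at 3 days and 10 higher and 1 lower at 7 days (medians 0.40 and 1.15, beside 0.38 and 0.64 for the laminins and nidogen). The higher share was 35.3% at 3 days and 58.8% at 7 days, where it was 14.9% and 27.7% over all genes, and the lower share was 5.88% at both times, where it was 14.0% and 26.9%. A gene counted as higher at 7 days was under the filter mean of 10 in SB (8.5) and was tested because of its TGFβ libraries. With a mean of at least 50 required, 6 genes passed at 3 days and 8 at 7 days, in place of 7 and 11. COL7A1, the anchoring fibril collagen that binds the epithelial anchor laminin, was at 293 and 370 normalized counts in SB, 2124 and 3054 at 3 days and 4324 and 3240 at 7 days (log2 difference 2.95 at 3 days with an adjusted p = 2.67e-07, then 3.50 with an adjusted p = 2.62e-08). COL15A1 was at 18 and 19, then 124 and 118, then 476 and 463, and HMCN1, hemicentin, rose by 2.22 and 3.07 on the log2 scale. FRAS1 was lower at both times (-1.20 and -1.26). The type IV collagen genes COL4A1 (0 to 3 in the 6 libraries) and COL4A2 (3 to 17), named here after their values were seen because nidogen joins laminin to that network, were close to the floor.

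Among 19 proteases that cut laminin or nidogen, 12 were tested, with 7 higher and 1 lower at 3 days and 10 higher and 1 lower at 7 days (medians 1.39 and 2.25). The higher share was 58.3% and then 83.3%, beside 14.9% and 27.7% of all genes, and the lower share 8.33% at both times, beside 14.0% and 26.9%. MMP2, MMP9 and TLL1 were under the filter mean of 10 in SB (4.5, 6 and 1). They were tested only because of their TGFβ libraries, so the filter itself adds to the higher share and the medians. With a mean of at least 50 required, 6 proteases passed at 3 days and 9 at 7 days, in place of 8 and 11. MMP9, a gelatinase, was at 5 and 7 normalized counts in SB, 43 and 67 at 3 days and 228 and 176 at 7 days (log2 differences 2.98 and 4.86, adjusted p = 1.73e-05 and 1.21e-07). MMP2 was at 2 and 7, then 35 and 52, then 38 and 31, and TLL1, a tolloid protease, was listed at 0 and 2, then 6 and 19, then 31 and 25. MMP19 was higher by 3.13 at 7 days, and the cathepsin CTSS was lower at both times (-0.77 and -1.09). Of 13 enzymes that build the laminin-binding glycan of dystroglycan, 11 were tested, and 1 was higher and 1 lower in each comparison, or 9.09% each way, which is below the share of all genes in each comparison (14.0% to 27.7%). POMT2, a mannosyltransferase, was higher by 1.19 at 3 days and by 1.44 at 7 days (adjusted p = 9.79e-06 and 8.70e-07). B3GNT1 was lower at 3 days (-0.55, adjusted p = 0.00787) and TMEM5 at 7 days (-0.38, adjusted p = 0.0115).

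**Figure D4:**
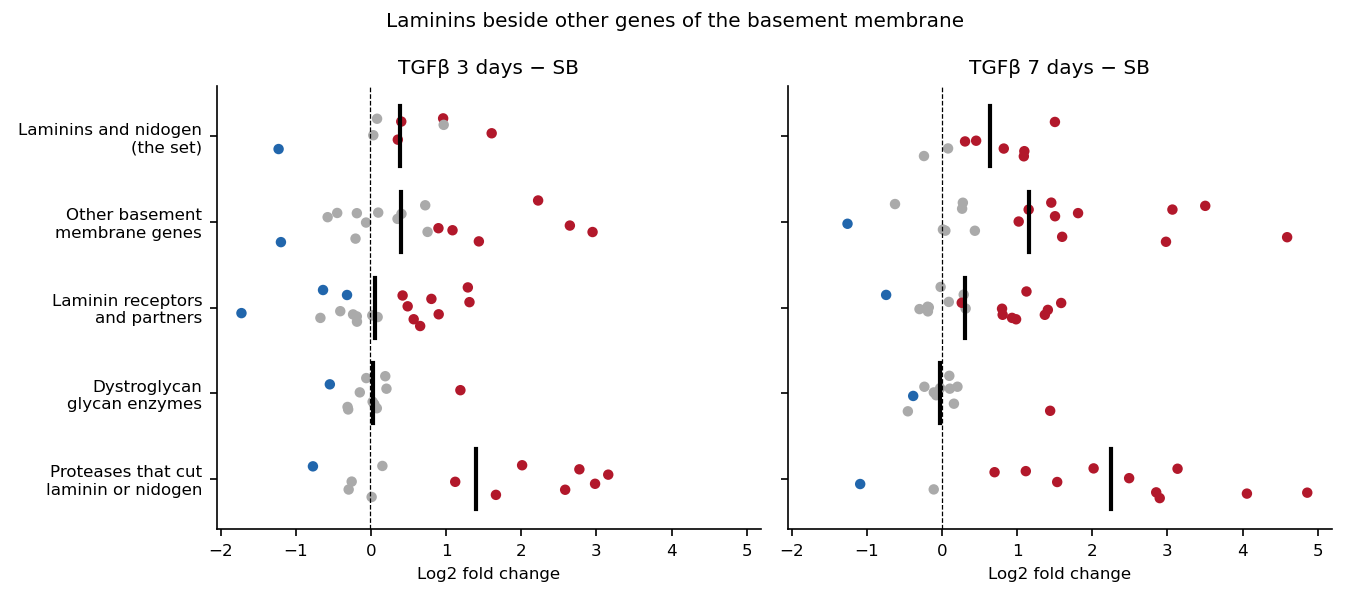
Log2 differences from SB (horizontal axis) of every tested gene of the set and the lists, at 3 and at 7 days of TGFβ. Red and blue are higher and lower at an adjusted p under 0.05, grey is not called, the black bar is the list median and the dashed line the median of all genes tested. The list median of the proteases is 1.39 at 3 days and 2.25 at 7 days, and that of the dystroglycan enzymes 0.02 and -0.03. The proteases include MMP2, MMP9 and TLL1, which passed the filter only through their TGFβ libraries.

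For 7 of the 8 tested genes, the gene with the most similar pattern among 69 genes of the set and the lists is given, by the Euclidean distance over the 6 libraries, after each gene was centred on its mean log2 value. LAMB3 was nearest to ITGA6 (0.473), LAMA5 to BCAM (0.642) and LAMA3 to SDC1 (0.372), beside median distances of 1.79, 1.93 and 1.27 over the 69 genes. NID1 was nearest to CD151 (0.357), LAMB2 to AGRN (0.322), LAMC1 to SDC4 (0.178) and LAMA4 to COL4A6 (0.778). Each distance is over 6 libraries in 3 groups of 2 and is a description with no test. BCAM differed between its SB libraries in the same direction as LAMA5 (157 and 391).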

How the data were processed

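PolyA RNA of H2087-LCC cells was sequenced in 3 groups of 2 libraries. The authors prepared TruSeq RNA v2 libraries, which do not mark strand, aligned pairs to hg19 (STAR), counted unique alignments per gene (HTSeq 0.6.1p1) and normalized the counts by library size with DESeq2 (3.4 in the submitters' notes). The deposited table holds these normalized counts rounded to whole numbers, recorded here under the unit score, so a test on read counts was not used.

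Values were transformed as log2(value + 1), with 1 as the pseudocount, and limma 3.58.1 (R 4.3.3) was run on 14395 genes whose mean reached 10 (group as the only term, 6 libraries, 3 residual degrees of freedom, a trend on mean expression). An exact two-sided permutation test of 2 against 2 cannot go below 0.333. Depth was estimated from the steps among low values and covers counting error only. All 9 genes are named with every library. Of each list the 3 largest rises and falls past the threshold were eligible to be named, and some list genes are not reported here. The genes, lists and tests were chosen with earlier results of these data known. Alternatives were a pseudocount of 0.5 or 5, other filters and scalings, other limma designs, a replicate block, leaving out single libraries, other lengths and, added after the data were examined, a GC content and length correction (loess, span 0.5, 13880 genes) and the short LAMA3 form. GENCODE gene models on GRCh37 were matched to 19740 of 21293 symbols.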

Additional observations from a re-analysis of the deposited data

Results flagged for a closer look

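Between 7 and 3 days of TGFβ, 4 of the 8 tested genes differed in limma, where 17.0% of all genes tested were higher and 16.2% lower. SB was sampled at 3 days alone, so a change in the effect of TGFβ relative to SB was not tested. Of the lists, 7 basement membrane genes, 6 receptors and partners, 1 dystroglycan enzyme and 7 proteases were higher, and 3 receptors and partners and 1 dystroglycan enzyme were lower. LAMA5 differed by 0.99 on the log2 scale (adjusted p = 0.0295), LAMB2 by 0.37 (0.0446), NID1 by 0.42 (0.0128) and LAMB3 by -0.52 (0.00505). Among the receptors and partners, SDC2 (2.26), BCAM (1.43) and ITGB4 (0.93) were higher at 7 days, and ITGA2 (-0.68), RPSA (-0.56) and ITGA6 (-0.48) were lower. The matrix genes COL15A1 (1.95), SPARC (1.90) and PXDN (0.93) were higher, as were the proteases MMP9 (1.88), MMP11 (1.87) and BMP1 (1.24). Of the dystroglycan enzymes, B3GNT1 was higher (0.71) and TMEM5 lower (-0.40). The 14 list genes named are those with the 3 largest rises and falls past the threshold in each list.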

How the results depend on the processing

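Alternatives were compared on the number of the 8 tested genes past the threshold (5 at 3 days against SB, 6 at 7 days against SB and 4 between 7 and 3 days). Without a filter on low values it was 4 at 3 days, where the lower call of LAMA5 was lost. At 3 days the number was 3 without the trend, and with 1 library left out 4 to 5. At 7 days it was 4 to 7 with all libraries and 4 to 6 with 1 left out, and with the GC content and length correction it was 5 higher and 2 lower (LAMA5 and LAMC1) in place of 6 and 0. Between 7 and 3 days it was 1 without a filter on low values, 2 with equal library totals, 1 without the trend, and 1 to 4 with 1 library left out (1 without the first 3-day, the first 7-day or the second 7-day library). With the replicate block the numbers stayed at 5, 6 and 4, for the same genes. Libraries of the same number deviated with a correlation across 11389 genes of 0.208 between SB and 3 days, -0.13 between SB and 7 days and -0.647 between 3 and 7 days. Genes over 60% GC moved in opposite directions between the libraries at 3 and 7 days (0.344 and -0.266), so these correlations cannot decide whether the numbers pair the libraries.

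With all libraries, 359 of 387 single-gene values kept their direction and side of the threshold, and with 1 left out 186 of 216. Those that reversed are given here. LAMC1 at 3 days was -0.027 with equal totals, -0.053 with the GC content and length correction and -0.015 to 0.073 with a library left out, and with that correction it was -0.17 at 7 days and -0.12 between 7 and 3 days. Under the correction LAMA3 was -0.12 between 7 and 3 days and LAMA2 was -0.11 at 7 days. With a library left out, LAMB2 at 3 days ran from -0.095 to 0.25, LAMC3 at 3 days from -0.34 to 0.66, LAMA5 at 7 days from -0.84 to 0.35, LAMA2 at 7 days from -0.015 to 0.48 and LAMA2 between 7 and 3 days from -0.28 to 0.21. By the longest coding sequence the LAMB3 share was 20.0%, 37.8% and 29.8%, and with the short LAMA3 form the LAMA3 share was 41.2%, 73.1% and 62.4%. The causes were not tested. Among all called genes, equal totals moved the share that was higher at 3 days from 51.5% to 41.6%, and the GC content and length correction moved it between 7 and 3 days from 51.3% to 40.8%. Of the receptors, 7 passed at 3 days without a filter on low values in place of 11, and the dystroglycan enzymes that passed numbered 1 to 5 over the 3 comparisons and their alternatives. Depth limits LAMA1 and LAMA4, which rest on few reads.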
